A study of Mus musculus with 8 samples.

Results

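The enzymes described here carry glucose through glycolysis to pyruvate and lactate, and pyruvate through the pyruvate dehydrogenase complex into the citric acid cycle. They are 35 of the 24746 genes in the count table, chosen by name for their place in these pathways. No cut on their values was used, but earlier results of these data were known when they were chosen. Their RNA was measured in pro-B cells, early B cell progenitors of the bone marrow, sorted by flow cytometry from C57BL/6 mice aged 10 to 12 weeks. The 4 control mice were miR-15a/b+/+ Vav-Cre and the 4 DKO mice miR-15a/bfl/fl Vav-Cre, so both groups carried the Vav-Cre transgene, which is active in hematopoietic cells from the stem cell on. In the DKO mice Cre removes the miR-15a/16-1 cluster, which lies in an intron of *Dleu2*, and the miR-15b/16-2 cluster, which lies in an intron of *Smc4*. The floxed alleles were made in embryonic stem cells of C57BL/6 x 129/Sv background. Each mouse gave 1 library.

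Glycolysis splits glucose into pyruvate in the cytosol and yields ATP without oxygen. The hexokinases, phosphofructokinases and pyruvate kinases catalyze its practically irreversible steps, and lactate dehydrogenase turns pyruvate into lactate while it regenerates NAD+. In the mitochondrion the pyruvate dehydrogenase complex makes acetyl-CoA, a step that the pyruvate dehydrogenase kinases switch off by phosphorylation, and the citric acid cycle oxidizes acetyl-CoA. Proliferating lymphocyte progenitors are known to draw on both routes, for energy and for building blocks.

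The 5p arms of the miRNAs of the deleted clusters, as RefSeq lists them for GRCm38.p6, are shown because they carry 1 seed, bases 2 to 8, which is given in capitals and which pairs with sites in the 3' UTRs of targets.
miR-15a-5p, from chromosome 14: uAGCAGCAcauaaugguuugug
miR-15b-5p, from chromosome 3: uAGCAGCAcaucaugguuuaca
miR-16-5p, from both chromosomes: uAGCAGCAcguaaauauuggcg
The seed is identical in these 5p arms, so a seed match for one is a match for each, and the 3p arms were not used here.

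The libraries held 38257907 to 41530921 counted reads in control mice and 38073065 to 43288133 in DKO mice. Reads over *Mir16-1*, in the deleted cluster, numbered 5, 1, 2 and 4 in control mice and 0 in every DKO mouse, and *Dleu2* differed by 2.37 on the log2 scale, with the higher level in DKO cells. The 12 markers of pro-B cells summed to 30343 to 34397 CPM (counts scaled to the library size after TMM normalization) in control and 32611 to 36163 CPM in DKO mice. Of these 12, *Il7r*, the IL-7 receptor (1.93-fold, edgeR adjusted p = 0.00266), and *Kit*, the receptor of stem cell factor (2.32-fold, adjusted p = 0.00810), rose in DKO cells, and the others did not pass. All 11 tested markers of monocytes and macrophages had lower estimates in DKO cells (median log2 fold change -1.11, summed level 416 to 1013 CPM in control and 291 to 738 CPM in DKO mice). By edgeR 0 of them passed, where 1.93% of all tested genes fell. At an unadjusted p under 0.05, 5 were lower (45.5%, against 9.86% of all tested genes). The likelihood ratio test called 1, *C1qa*, while DESeq2 and limma-voom called 0. In bulk RNA fewer cells of a type and less RNA per cell cannot be told apart. The neutrophil markers summed to 422 to 2821 CPM in control and 311 to 2234 CPM in DKO mice. Within both groups the mice differed: *S100a8* was at 863, 139, 153 and 755 CPM in control and at 86.0, 157, 732 and 613 CPM in DKO mice. *S100a9* was at 1075, 161, 178 and 966 CPM in control and at 113, 197, 790 and 683 CPM in DKO mice. *Elane*, *Mpo* and *Prtn3* were at 3.97, 5.59 and 2.87 CPM in control mouse 1. They were lower still in control mouse 2 (3.04, 2.11 and 1.91 CPM) and DKO mouse 1 (2.68, 4.07 and 1.25 CPM). By contrast *Ngp*, *Camp*, *Ltf*, *Ly6g* and *Csf3r* were high in control mouse 1 (371, 185, 70.3, 8.93 and 5.04 CPM). All 5 tested erythroid markers had lower estimates in DKO cells (median log2 fold change -0.61, summed level 42.2 to 118 CPM in control and 19.99 to 47.4 CPM in DKO mice), while the hemoglobin genes *Hbb-bs*, *Hbb-bt*, *Hba-a1* and *Hba-a2* were at 0 in every library. Among them *Alas2*, the erythroid enzyme of heme synthesis, had a log2 fold change of -1.44 (edgeR adjusted p = 0.0690) and was called by the likelihood ratio test and DESeq2. Of the 2 tested stromal and endothelial markers *Cxcl12* fell (4.30 ± 1.31 against 1.56 ± 0.573 CPM, log2 fold change -1.47, edgeR adjusted p = 0.0322), also with the likelihood ratio test, DESeq2 and limma-voom, and *Pecam1* did not pass (44.7 ± 9.44 against 53.9 ± 4.68 CPM, log2 fold change 0.27). *Xist*, the RNA of the silenced X chromosome, had 2, 6 and 0 reads in control mouse 1 and DKO mice 3 and 4 and 2805 to 3964 reads in the other 5 mice, and the sex of each mouse is not in the labels. The part of these differences in the results below was not tested, except that the *Xist* level was also taken as a covariate. The mice with few *Xist* reads, control mouse 1 and DKO mice 3 and 4, were also high for *S100a8* and *S100a9*. A fit with the *Xist* level therefore cannot fully tell *Xist* apart from the neutrophil level.

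Of the 35 enzyme genes, 33 had enough reads for the test and 2 enolase genes, *Eno1* and *Eno2*, did not. *Pfkl*, the liver type phosphofructokinase, *Pdhb*, a subunit of pyruvate dehydrogenase, and *Sucla2*, a subunit of succinyl-CoA synthetase, rose in DKO cells, and no member fell. In edgeR (quasi-likelihood F-test, Benjamini-Hochberg adjustment over 12714 genes), 3 of 33 members (9.09%) rose at an adjusted p under 0.05, where 2.65% of all tested genes did, and 0 fell, where 1.93% of all did. At an unadjusted p under 0.05 the count was 4 higher (12.1%, against 10.3% of all genes) and 3 lower (9.09%, against 9.86% of all genes), which is close to the share among all genes in both directions. The median log2 fold change of the 33 was -0.02 and that of all tested genes was -0.01. Within 0.25 of 0 lay 24 of the 33, and 7590 of all 12714 tested genes. Most of the enzymes, like most tested genes, thus lay close to no difference.

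Each DKO mouse lay above each control mouse for 4 members (7.63% of all genes did so), *Pfkl*, *Pdhb*, *Sucla2* and *Ogdh*. Each DKO mouse lay below each control mouse for 2 members (6.21% of all genes), *Gpi1* and *Ldhb*. DESeq2 called all of these 6, 4 higher (5.30% of all genes it tested) and 2 lower (4.47% of all), with an adjusted p of 0.0318 for *Ogdh*, 0.0435 for *Gpi1* and 0.0389 for *Ldhb*.

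**Figure D1:**
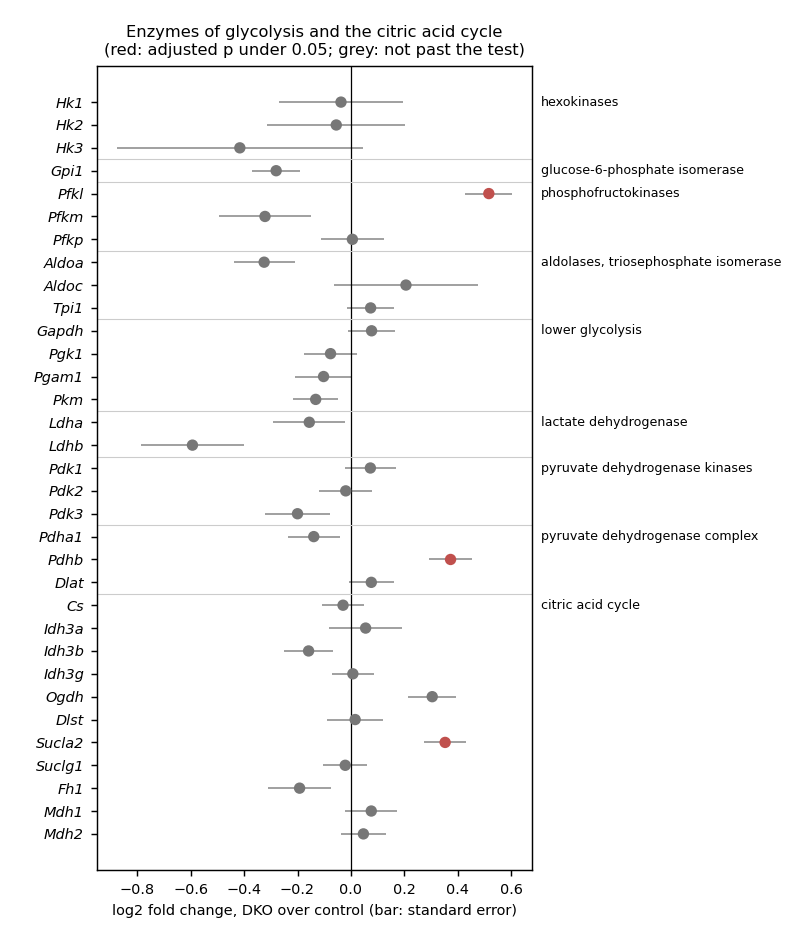
Log2 fold change of DKO over control (x axis) with its standard error for the 33 tested enzyme genes, in the order of the pathway (y axis). The 3 red points, *Pfkl*, *Pdhb* and *Sucla2*, passed the adjusted test, and the grey points range from -0.59 for *Ldhb* to 0.30 for *Ogdh*.

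*Pfkl* encodes a subunit of phosphofructokinase 1, which makes fructose 1,6-bisphosphate and commits the sugar to glycolysis. It lies on the minus strand of chromosome 10 (chr10:77986949-78009796, GRCm38). Its level in control mice 1 to 4 was 53.2, 54.4, 58.6 and 61.4 CPM, and in DKO mice 1 to 4 it was 86.5, 75.2, 78.8 and 85.1 CPM. The groups did not overlap, and the gap between them was wider than the range within either. The group mean was 56.9 ± 3.78 CPM in controls and 81.4 ± 5.35 CPM in DKO mice (SD over 4 mice, as for all values given with ±), a 1.43-fold rise (log2 fold change 0.52, standard error 0.09, edgeR adjusted p = 0.00995). This call held when each of the 8 mice was left out in turn, with edgeR adjusted p values from 0.0130 to 0.0454.

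The other phosphofructokinase genes did not pass. *Pfkp*, the platelet type, was at 71.6 ± 9.29 CPM in controls against 71.9 ± 8.17 CPM in the DKO (log2 fold change 0.01, standard error 0.12). *Pfkm*, the muscle type, was at 10.6 ± 1.93 and 8.49 ± 1.28 CPM (log2 fold change -0.32, standard error 0.17, edgeR adjusted p = 0.327). Phosphofructokinase works as a tetramer that can mix these subunits. Per length, in RPKM (CPM per kilobase of exon), *Pfkl* made up 42.8 ± 2.53% of the summed level of the family in control mice and 52.4 ± 3.84% in DKO mice, while *Pfkp* made up 47.6 ± 3.42% and 41.0 ± 3.31%. By mouse, the *Pfkl* share was 45.1, 39.5, 42.2 and 44.4% in control and 55.0, 46.8, 54.7 and 53.3% in DKO mice. *Pfkl* was thus the leading transcript of the family in every DKO mouse, and among the controls in mouse 1 alone, where the *Pfkp* share was 44.3%. Without the division by length *Pfkp* had the higher CPM in control mouse 1 (59.0 against 53.2) and in DKO mouse 2 (82.7 against 75.2), so the order in those mice depends on the scale. The summed level of the family was 35.9 ± 2.72 RPKM in control and 41.8 ± 2.06 RPKM in DKO mice.

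**Figure D2:**
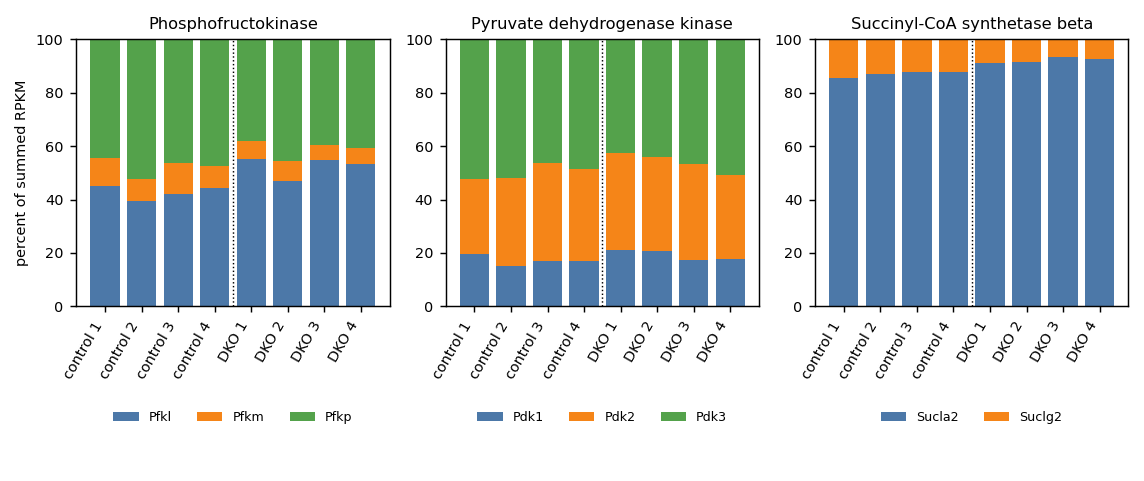
Share of each isozyme or subunit gene in the summed RPKM of its family (y axis, percent) in each of the 8 mice (x axis), with control and DKO mice parted by the dotted line. The *Pfkl* share is 39.5 to 45.1% in control and 46.8 to 55.0% in DKO mice, and the *Sucla2* share is 85.7 to 87.6% in control and 91.0 to 93.4% in DKO mice.

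Upstream of phosphofructokinase no gene passed. *Hk1*, a hexokinase that binds to mitochondria, was at 103 ± 26.8 CPM in controls against 101 ± 36.5 CPM in the DKO and made up 95.1% and 95.5% of the hexokinase RPKM. Its spread did not follow genotype, since control mice 2 and 3 (139 and 108 CPM) and DKO mouse 2 (155 CPM) stood above the other 5 mice, which lay between 77.3 and 90.9 CPM. *Hk2* was at 3.07 ± 0.619 and 2.95 ± 0.740 CPM. *Hk3*, a hexokinase of myeloid cells, was at 1.79 ± 0.867 and 1.34 ± 0.519 CPM (edgeR adjusted p = 0.662), in libraries that also differ in the summed level of the myeloid markers given above. The part of those cells in the *Hk3* values was not tested.

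*Gpi1*, which converts glucose 6-phosphate to fructose 6-phosphate, was at 225, 243, 239 and 256 CPM in control mice and at 187, 179, 213 and 216 CPM in DKO mice. All DKO mice lay below all controls, with DKO mice 1 and 2 lowest. The mean was 241 ± 12.9 against 199 ± 18.7 CPM (log2 fold change -0.28, standard error 0.09), and the edgeR adjusted p was 0.104. *Aldoa*, the main aldolase, which cleaves fructose 1,6-bisphosphate, was at 216, 207, 174 and 224 CPM in control mice and at 141, 151, 175 and 188 CPM in DKO mice. The groups overlapped, through control mouse 3 and DKO mice 3 and 4. Its mean was 205 ± 22.1 against 164 ± 21.6 CPM (log2 fold change -0.33, standard error 0.11, edgeR adjusted p = 0.136), and with *Xist* as a covariate the adjusted p was 0.0371. That covariate cannot be fully told apart from the neutrophil level, as stated above. The part of neutrophils in the *Aldoa* values was not tested. *Aldoc* was at 7.67 ± 3.03 and 8.84 ± 1.83 CPM, and *Tpi1*, the triosephosphate isomerase, at 287 ± 14.2 and 302 ± 27.4 CPM.

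In the lower part of glycolysis the abundant genes differed little between the groups. *Gapdh* led all members per length, at 1083 RPKM over the 8 mice, and was at 1577 ± 66.3 CPM in controls against 1664 ± 120 CPM in the DKO (log2 fold change 0.08, standard error 0.09). *Pkm*, the pyruvate kinase gene of proliferating cells, was at 576 ± 43.3 and 525 ± 21.7 CPM (log2 fold change -0.13, standard error 0.09). *Pgk1* and *Pgam1*, a kinase and a mutase of 3-phosphoglycerate metabolism, had log2 fold changes of -0.08 and -0.10. None of these passed the test. Near-identical copies limit some of these levels: 74.0% of the 150-base windows of the *Gapdh* transcript occur unchanged in transcripts of other annotated genes, against 66.1% for *Pgk1*, 37.9% for *Pgam1*, 2.9% for *Pkm* and 2.1% for *Pdhb*. The sources used here do not say how reads that fit several genes were counted.

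Enolase, which makes phosphoenolpyruvate, was the step that the count table did not resolve. *Eno1*, its widely expressed gene, was listed at 0, 6, 3 and 0 reads in control mice and at 0, 0, 2 and 0 reads in DKO mice. *Eno2*, the neuronal form, had 0, 2, 2 and 4 reads in control and 0, 2, 0 and 8 reads in DKO mice. These counts are far below those of the neighbouring steps. In the table's own gene models the exons of another gene, *Eno1b*, are placed on chromosomes 18 and 4, and on chromosome 4 they cover 1649 of the 1776 exon bases of *Eno1* (92.8%) on the same strand. Reads over those bases belong to both genes, so reads from *Eno1* and *Eno1b* cannot be told apart, and the near absence of *Eno1* reads is no measure of its RNA.

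*Eno1b* itself had 4220, 4245, 3754 and 2418 reads in control mice and 2045, 24, 2348 and 2223 reads in DKO mice. All DKO mice lay below all controls, and DKO mouse 2, at 24 reads, stood far apart from the rest. The log2 fold change was -1.15 with a standard error of 0.75 (edgeR adjusted p = 0.424), and it was the same when the reads of *Eno1* and *Eno1b* were summed before the fit, an alternative chosen after seeing the data. Enolase is therefore left without a comparison.

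**Figure D3:**
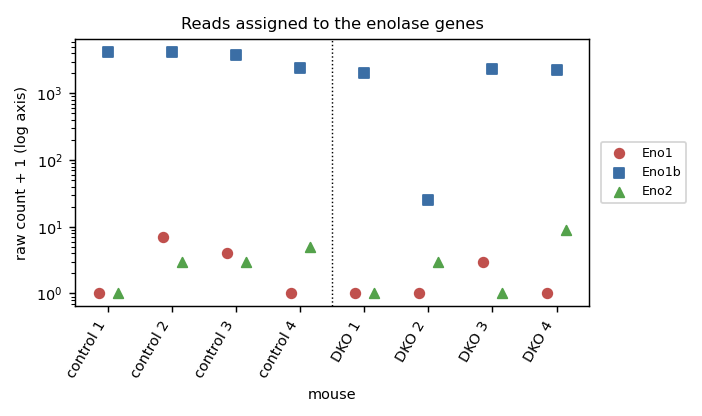
Raw count plus 1 (y axis, log scale) of *Eno1*, *Eno1b* and *Eno2* in each of the 8 mice (x axis). *Eno1b* lies between 2045 and 4245 reads except in DKO mouse 2, which has 24, while *Eno1* and *Eno2* have at most 8 reads in any mouse.

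Of the lactate dehydrogenase genes, *Ldha* took 98.2% of the RPKM in control and 98.7% in DKO mice. Its level was 751 ± 113 and 674 ± 101 CPM (log2 fold change -0.16, standard error 0.14, edgeR adjusted p = 0.566). By mouse it was at 844, 694, 620 and 847 CPM in control and at 611, 570, 735 and 782 CPM in DKO mice. Control mice 1 and 4 and DKO mice 3 and 4, the mice high for *S100a8*, lay above all the others. The part of neutrophils in the *Ldha* values was not tested. *Ldhb*, the form typical of heart muscle, was scarce, at 7.99, 10.9, 8.16 and 8.69 CPM in control mice and 6.79, 7.17, 4.53 and 5.17 CPM in DKO mice. All DKO mice lay below all controls, and the lowest were DKO mice 3 and 4, which had 6 and 0 *Xist* reads. The log2 fold change was -0.59, the lowest of the 33 members (standard error 0.19), and the edgeR adjusted p was 0.109. With *Xist* as a covariate the log2 fold change was -0.52 and the edgeR adjusted p 0.0820.

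At the entry to the mitochondrion *Pdhb* rose. It encodes the beta subunit of the E1 component of pyruvate dehydrogenase, which decarboxylates pyruvate, and lies on the minus strand of chromosome 14 (chr14:8165991-8172992, GRCm38), 53.5 Mb from the deleted miR-15a/16-1 cluster. Control mice 1 to 4 were at 236, 238, 252 and 263 CPM and DKO mice at 303, 318, 318 and 340 CPM. The lowest DKO mouse was well above the highest control. The mean rose from 247 ± 12.8 to 320 ± 15.2 CPM, 1.29-fold (log2 fold change 0.37, standard error 0.08, edgeR adjusted p = 0.0254). This call stood without control mouse 1 or without control mouse 4, and was lost without any one of the other 6 mice, with adjusted p values of 0.0509 (without control mouse 3), 0.0614 (control mouse 2), 0.0607 (DKO mouse 1), 0.0682 (DKO mouse 2), 0.0774 (DKO mouse 3) and 0.0632 (DKO mouse 4), while the log2 fold change stayed between 0.34 and 0.40.

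The partners of *Pdhb* in the complex did not pass. *Pdha1*, the X-linked alpha subunit of E1, was at 76.2 ± 5.97 CPM in controls against 69.2 ± 6.73 CPM in the DKO (log2 fold change -0.14, standard error 0.10). *Dlat*, the E2 component that carries the acetyl group, was at 48.6 ± 1.43 and 51.3 ± 2.90 CPM (log2 fold change 0.08, standard error 0.08). The ratio of *Pdhb* to *Pdha1* in RPKM was 6.26 ± 0.554 in control and 8.93 ± 0.724 in DKO mice, and its range over mice was 5.56 to 6.80 against 8.40 to 9.93. It must be read with the annotation, since 21.1% of the exon bases of *Pdha1* also lie in *Map3k15* on the opposite strand, and the sources used here do not say whether the counting used strand. Smaller overlaps with genes of the opposite strand touch *Pfkp* (6.6% of its exon bases, with *Pitrm1*), *Tpi1* (1.6%), *Hk3* (1.0%) and *Idh3b* (0.3%).

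The kinases that inactivate pyruvate dehydrogenase did not pass either. *Pdk3*, which is X-linked, led the family per length, with 49.8% of its RPKM in control and 46.0% in DKO mice, ahead of *Pdk2* (33.1% and 34.8%) and *Pdk1* (17.1% and 19.2%). Without the division by length *Pdk1* had the largest mean share in DKO mice (36.8% of the summed CPM, against 34.1% for *Pdk3*), so the order there depends on the scale. Their log2 fold changes were -0.20 for *Pdk3*, -0.02 for *Pdk2* and 0.07 for *Pdk1*, with standard errors of 0.12, 0.10 and 0.09. The 4 X-linked members, *Pgk1*, *Pdha1*, *Idh3g* and *Pdk3*, all stayed short of the threshold also with *Xist* as a covariate (edgeR adjusted p from 0.106 for *Pdk3* to 0.979 for *Idh3g*).

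In the citric acid cycle *Sucla2* rose. It encodes the beta subunit of the ADP-forming succinyl-CoA synthetase, which turns succinyl-CoA into succinate, and lies on the plus strand of chromosome 14 (chr14:73552786-73596142, GRCm38), 11.9 Mb from the deleted cluster. It was at 129, 133, 133 and 130 CPM in control mice and at 158, 159, 169 and 184 CPM in DKO mice. The controls were nearly alike and every DKO mouse lay above them. The mean rose from 131 ± 2.06 to 168 ± 12.1 CPM, 1.28-fold (log2 fold change 0.35, standard error 0.08, edgeR adjusted p = 0.0301). This call stood without control mouse 1 and was lost without any one of the other 7, with adjusted p values of 0.0614, 0.0571 and 0.0765 without control mouse 2, 3 or 4 and of 0.0644, 0.0589, 0.0936 and 0.0701 without DKO mouse 1, 2, 3 or 4. The log2 fold change stayed between 0.31 and 0.38.

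*Suclg2* encodes the beta subunit of the GTP-forming enzyme and is no member of the 35, but belongs to the list of other genes of the cycle. It fell, from 39.0, 35.2, 34.0 and 33.1 CPM in control mice to 28.2, 26.5, 21.6 and 26.0 CPM in DKO mice, with no overlap (log2 fold change -0.47, standard error 0.11, edgeR adjusted p = 0.0375). Both beta subunits pair with the alpha subunit *Suclg1*, which was at 188 ± 8.64 CPM in controls against 185 ± 14.3 CPM in the DKO. Per length, *Sucla2* made up 87.0 ± 0.94% of the beta subunit RPKM in control mice and 92.2 ± 1.09% in DKO mice. The ratio to *Suclg1* in RPKM went from 0.462 ± 0.0267 to 0.597 ± 0.0139 for *Sucla2* and from 0.0688 ± 0.00618 to 0.0507 ± 0.00691 for *Suclg2*. These shares and ratios describe the mice and were not tested.

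*Ogdh*, the E1 component of the oxoglutarate dehydrogenase complex, one step before succinyl-CoA synthetase, was at 98.4, 106, 118 and 108 CPM in control mice and at 132, 119, 137 and 144 CPM in DKO mice. The groups did not overlap, although control mouse 3 and DKO mouse 2 came close to each other. The mean was 108 ± 8.03 against 133 ± 10.3 CPM (log2 fold change 0.30, standard error 0.09), and the edgeR adjusted p of 0.0811 was short of the threshold. *Dlst*, the E2 component of the same complex, was at 57.8 ± 7.33 and 58.4 ± 2.56 CPM (log2 fold change 0.02).

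**Figure D4:**
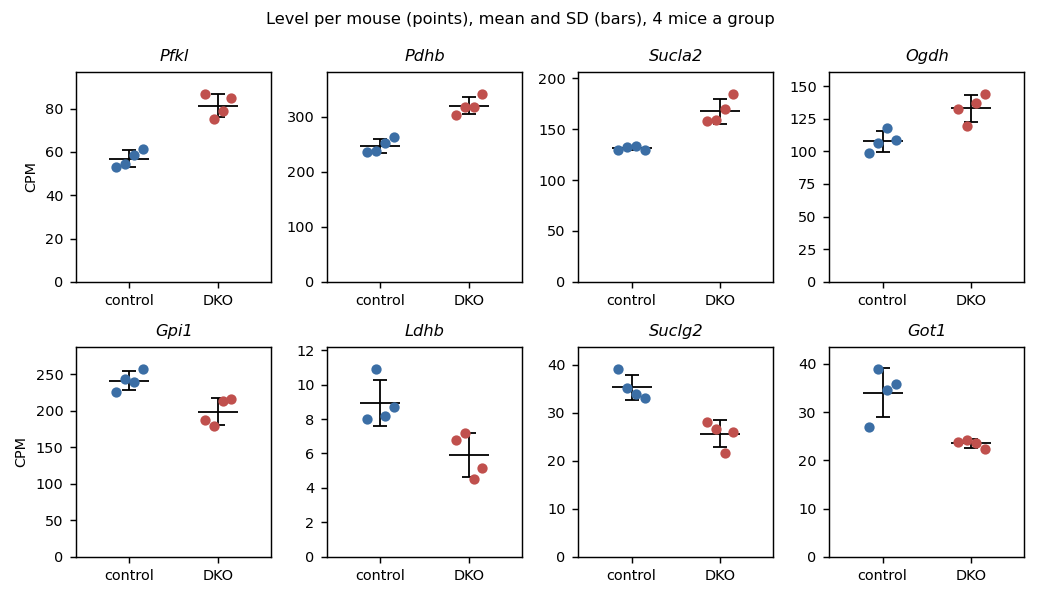
CPM (y axis, from 0) of 8 genes in control and DKO mice (x axis), with 1 point per mouse and bars for the mean and SD of 4 mice. The groups do not overlap in any panel. *Pfkl*, *Pdhb*, *Sucla2* and *Ogdh* are higher in DKO mice, *Gpi1*, *Ldhb*, *Suclg2* and *Got1* lower, and *Ogdh*, *Gpi1* and *Ldhb* did not pass the adjusted test.

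The other members listed under the cycle did not pass. *Cs*, the citrate synthase, was at 138 ± 4.30 CPM in controls against 136 ± 8.38 CPM in the DKO. The isocitrate dehydrogenase subunits *Idh3a*, *Idh3b* and *Idh3g* had log2 fold changes of 0.05, -0.16 and 0.01. *Fh1*, the fumarase, was at 196 ± 35.1 and 172 ± 9.23 CPM, with control mouse 1 at 246 CPM and the other 7 mice at 160 to 196 CPM. The malate dehydrogenases *Mdh2* of the mitochondrion and *Mdh1* of the cytosol came next to *Gapdh* in the order of levels per length, at 426 and 424 RPKM, and their ranges over mice overlapped (386 to 467 and 375 to 475 RPKM). Their log2 fold changes were 0.05 and 0.08, with standard errors of 0.09 and 0.10.

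**Figure D5:**
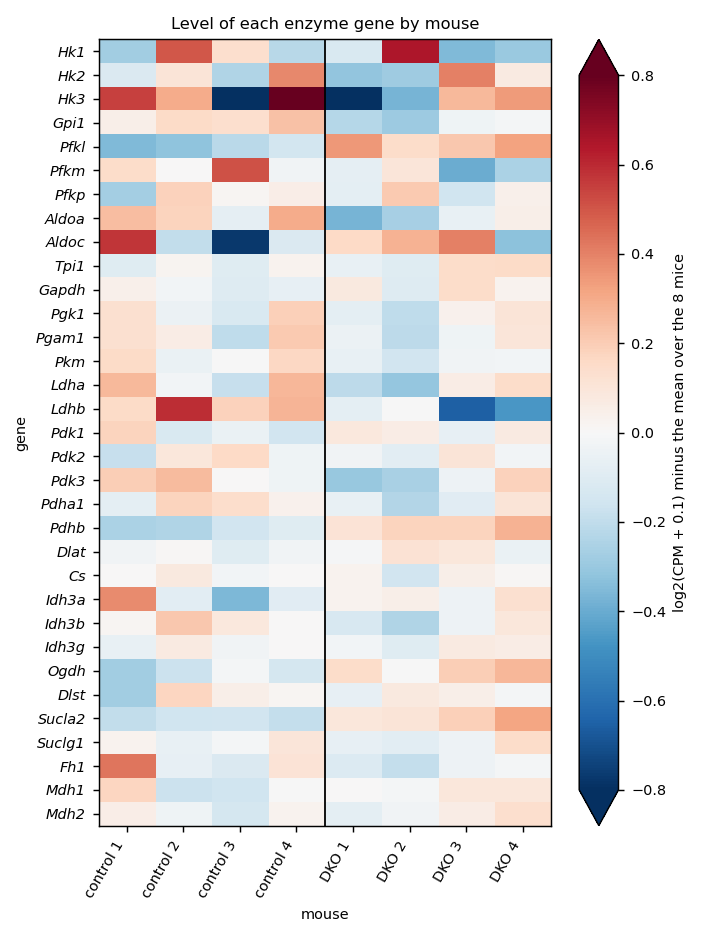
Log2(CPM + 0.1) of each of the 33 tested enzyme genes (y axis) in each mouse (x axis), as the difference from the gene's mean over the 8 mice. *Pfkl*, *Pdhb* and *Sucla2* change color at the line between control and DKO mice. *Ogdh* does so except in control mouse 3 and DKO mouse 2, which are near its mean (-0.018 and -0.003). *Hk1* is highest in control mouse 2 and DKO mouse 2.

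No mouse was highest or lowest for all members. DKO mouse 2 had the lowest level for 12 of the 33 members, control mouse 1 for 7 and DKO mouse 4 for none, and the median log2 difference of the members from their means lay between -0.09 (DKO mouse 2) and 0.07 (DKO mouse 4). For glycolysis and lactate dehydrogenase alone this median ran from -0.13 (DKO mouse 2) to 0.18 (control mouse 4), with control mouse 1 at 0.13 and control mouse 3 at -0.10. For the citric acid cycle, with the cytosolic *Mdh1* counted in, it ran from -0.06 (control mouse 2) to 0.09 (DKO mouse 4). Of the 16 tested members of glycolysis and lactate dehydrogenase, edgeR called 1 higher (6.25%, against 2.65% of all genes) and 0 lower (against 1.93%), DESeq2 called 1 higher (against 5.30% of all genes) and 2 lower (*Gpi1* and *Ldhb*, against 4.47%), and 11 had negative estimates (median -0.09). At an unadjusted p under 0.05 these were 1 higher (6.25%, against 10.3% of all genes) and 3 lower (18.8%, against 9.86%). The 11 members listed under the citric acid cycle include *Mdh1*, the cytosolic form. Of these 11 edgeR called 1 higher (9.09%) and 0 lower. DESeq2 called 2 higher (*Ogdh* and *Sucla2*, against 5.30% of all genes) and 0 lower, and 4 of the 11 had negative estimates (median 0.02). At an unadjusted p under 0.05 these were 2 higher (18.2%, against the same 10.3%) and 0 lower (against 9.86%).

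The genes of these pathways outside the 35 were counted in lists of their own. In the rest of pyruvate oxidation and the citric acid cycle, with its carriers, assembly factors and side reactions, 0 of 29 tested genes rose by edgeR (against 2.65% of all genes) and 2 fell (6.90%, against 1.93% of all), *Suclg2* and *Got1*. At an unadjusted p under 0.05 these were 2 higher (6.90%) and 4 lower (13.8%), against 10.3% and 9.86% of all genes. DESeq2 called 1 higher and 4 lower (against 5.30% and 4.47% of all genes), and limma-voom called 0 higher and 2 lower. *Got1*, the cytosolic aspartate aminotransferase of the malate-aspartate shuttle, was at 26.9, 38.9, 34.6 and 35.8 CPM in control mice and at 23.7, 24.3, 23.7 and 22.2 CPM in DKO mice. All DKO mice lay below all controls, of which mouse 1 was lowest (log2 fold change -0.54, standard error 0.12, edgeR adjusted p = 0.0301). Without control mouse 1 the adjusted p was 0.0053 for *Got1* and 0.0486 for *Suclg2*, and both calls were lost without any one of the other 7 mice, with adjusted p values up to 0.0832 and 0.108. The rest of glycolysis, with glucose and lactate transporters and the bifunctional regulators of phosphofructokinase, had 22 tested genes. By edgeR 0 of them rose and 0 fell, against 2.65% and 1.93% of all genes. At an unadjusted p under 0.05 these were 3 higher (13.6%) and 2 lower (9.09%), against the same shares of all genes. The likelihood ratio test called 2 higher and 1 lower, where it called 519 and 461 of all 12714 tested genes. DESeq2 also called 2 higher and 1 lower, against 5.30% and 4.47% of all genes, and limma-voom called 0. The lowest p values were those of *Gpd1*, the glycerol 3-phosphate dehydrogenase (2.64 ± 1.17 and 6.21 ± 1.08 CPM, log2 fold change 1.23, edgeR adjusted p = 0.0729), and *Bpgm*, the bisphosphoglycerate mutase (53.6 ± 19.4 and 32.5 ± 3.67 CPM, log2 fold change -0.72, adjusted p = 0.0807). *Bpgm* is abundant in erythroid cells, and both it and *Alas2* were highest in control mouse 1 (81.1 and 89.4 CPM); the part of those cells in its values was not tested.

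The longest 3' UTR that GENCODE M21 lists for each gene was scanned for the miR-15/16 seed match, as TGCTGCTA (8mer), TGCTGCT (7mer-m8) and GCTGCTA (7mer-A1, counted where the longer ones were absent). A match was found in 8 of 35 members (22.9%), against 3298 of 11810 tested genes with a 3' UTR (27.9%). In the shortest 3' UTR of each gene the counts were 5 of 35 (14.3%) and 1923 of 11810 (16.3%), and the members that lost their match were *Sucla2*, *Pfkp* and *Aldoa*. In the longest one *Pfkl* has a pair of 7mer-m8 matches and *Sucla2* has 1, whereas *Pdhb* has none. *Pfkp*, with a log2 fold change of 0.01, has the only 8mer, and *Aldoa*, which had a negative estimate, has a 7mer-m8. The matches of *Pfkl* and *Sucla2*, the members that rose, and of *Pfkp* and *Aldoa*, which did not pass the test, are shown with the match in capitals.
*Pfkl*, base 132 of 1263: ggggtctactgTGCTGCTctggggctctt
*Pfkl*, base 883 of 1263: cttacgtgagcTGCTGCTgggtccatcct
*Sucla2*, base 155 of 694: gcatctgattcTGCTGCTgagaatggact
*Pfkp*, base 1225 of 1692: tggctgtgagcTGCTGCTAgttggaagcta
*Aldoa*, base 96 of 185: cccatcactctTGCTGCTgccctcgtgtg
The other matches were 7mer-m8 in *Hk2*, *Idh3a* and *Dlst*, which did not pass the test, and 7mer-A1 in *Eno1*, which was not tested. A match is a stretch of letters and not a measured site.

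The promoters of the members, from 250 bases before to 50 after the start in RefSeq, were searched on both strands for CACGTG, the E-box bound by MYC and other factors, and for ACGTG, the core of the site bound by HIF1, which every CACGTG contains. Of 52 promoters of 34 members, 6 (11.5%) held CACGTG, against 7.2% of all 32851 promoters and 9.8% of those of tested genes. These 6 include 3 of *Ogdh*, whose windows partly overlap, and counted by gene 4 of 34 members (11.8%) held it, against 11.6% of tested genes. ACGTG was in 24 of the 52 (46.2%), against 19.6% of all and 25.1% of those of tested genes, and by gene in 17 of 34 members, against 28.9% of tested genes. The genes with CACGTG were *Ldha*, *Ogdh*, *Pdk2* and *Pfkm*, and none of them passed the test. Of the genes that rose, *Pdhb* held ACGTG, while *Pfkl* and *Sucla2* held neither run of letters in this window.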

How the data were processed

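RNA of sorted pro-B cells from 4 control and 4 DKO mice had been amplified with a SMART-seq protocol and sequenced. The authors trimmed reads with Trimmomatic, aligned them with STAR and counted them with featureCounts, as the submitters' processing notes say, and deposited raw counts per gene, whole numbers without normalization. Their versions, the strand setting and the treatment of reads that fit several genes are not named in the sources used here. The notes name GRCm39, but 90.1% of the genes matched by symbol start or end within 10 bases of their place in RefSeq GRCm38.p6, so positions are given as GRCm38.

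In edgeR 4.0.16 (R 4.3.3) the 12714 genes that filterByExpr kept (count of 10, total of 15) were scaled by TMM, and the effect of genotype, the only term, was tested by quasi-likelihood. P values were adjusted over all tested genes (Benjamini-Hochberg, threshold 0.05). Where nothing else is named, tests are two-sided comparisons of 4 against 4 mice. The prior count in log2 fold changes was 0.125. RPKM are CPM divided by the exon length of the table in kilobases. At these depths the spread between mice limits most comparisons, and genes below 0.1 CPM rest on a few reads. Alternatives were the likelihood ratio test, DESeq2 1.42.0, limma-voom (limma 3.58.1), a robust fit, other filters and normalizations, the replicate number or the *Xist* level (log2 CPM plus 0.1) as a term, omission of immunoglobulin and hemoglobin genes, and omission of each mouse. The fit was tested on simulated data. Replicates all differed by more than sampling noise.

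The members, the gene lists and the tests were chosen with earlier results of these data known. The genes named are all 35 members and, of each related list, those past the threshold or, where fewer than 2 passed, the 2 with the smallest p. *Eno1b* was named after its values were seen. RefSeq promoters were found for 34 members. The table held 0 further per-sample columns.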

Additional observations from a re-analysis of the deposited data

Results flagged for a closer look

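In the DKO mice *Pdk1*, the pyruvate dehydrogenase kinase induced by hypoxia, was at 70.2, 69.1, 63.3 and 69.6 CPM. DKO mouse 3 stood apart from the other 3, with a gap to the nearest of them of 0.835 of the group's range, above the critical value of 0.829 for 4 samples. It was the only such case among 66 groups of member values examined, and chance alone marks about 1 in 20.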

How the results depend on the processing

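*Pfkl*, *Pdhb* and *Sucla2* passed in each of the 12 alternative fits with all mice except the replicate block, and no result that had passed changed its direction. With DESeq2, 674 genes rose and 568 fell, 2 members fell, and of the other pathway genes 3 rose and 5 fell. With the *Xist* level as a covariate these counts were 559 and 506, 1 member (*Aldoa*) lower, and 2 and 6. With the likelihood ratio test 519 genes rose and 461 fell, with 3 and 4 other pathway genes, and with library size alone 4 other pathway genes fell. The labels number the replicates but name no pairing. The correlations of same-numbered mice over all tested genes were -0.24, 0.09, -0.23 and -0.06, and no mouse was most like its own number. Control mouse 1 was most like DKO mice 3 and 4 (0.27 and 0.23), which were also high for *S100a8* and had few *Xist* reads. Whether same-numbered mice shared a preparation was not tested. With the replicate block 94 genes rose and 54 fell, with 0 members higher and 0 other pathway genes lower, and the edgeR adjusted p was 0.0651 for *Pfkl*, 0.104 for *Pdhb* and 0.130 for *Sucla2*. Without 1 mouse, members higher numbered 1 to 3 and lower 0 to 0, all genes higher 142 to 493 and lower 84 to 398, and other pathway genes higher 0 to 3 and lower 0 to 2. The shortest 3' UTR left 5 members with a seed match, where the longest gave 8, and *Sucla2* was among the 3 without it. Without length (CPM) the order in the *Pdk* family in control mice was *Pdk3* (37.9%), *Pdk1* (33.7%) and *Pdk2* (28.5%), and in DKO mice *Pdk1* (36.8%), *Pdk3* (34.1%) and *Pdk2* (29.1%). Windows of 100 bases, chosen after seeing the data, were found in another gene for 10 members, against 6 with 150, and the share for *Pdhb* was 10.5%. No tested gene was an immunoglobulin or hemoglobin gene, so that omission changed nothing. The cause of these shifts was not tested. With 4 mice a group, small changes of the scarce members *Hk2*, *Hk3*, *Pfkm*, *Aldoc* and *Ldhb* are the least certain.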

Other observations

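Of the pentose phosphate pathway, which branches from glucose 6-phosphate to make NADPH and ribose, 0 of 10 tested genes rose and 0 fell by edgeR, where 2.65% of all genes rose and 1.93% fell. At an unadjusted p under 0.05 these were 0 and 1, against 10.3% and 9.86% of all genes. The likelihood ratio test, DESeq2 and limma-voom called 0. *Prps1*, which makes phosphoribosyl pyrophosphate, was at 167 ± 16.5 CPM in controls against 136 ± 17.2 CPM in the DKO (SD over 4 mice; log2 fold change -0.29, edgeR adjusted p = 0.155). *Pgls*, the lactonase of the pathway, was at 916 ± 79.5 and 1051 ± 57.5 CPM (log2 fold change 0.20, edgeR adjusted p = 0.254). Of gluconeogenesis 3 genes were tested and none passed in edgeR, 1 being higher and 0 lower at an unadjusted p under 0.05. The likelihood ratio test called 1 of them, *Fbp1*, and DESeq2 and limma-voom called 0. *Fbp1*, which reverses the phosphofructokinase step, was at 54.7, 26.0, 24.1 and 26.8 CPM in control mice and at 52.3, 47.2, 68.2 and 94.5 CPM in DKO mice. Control mouse 1 was at the level of the lower DKO mice and the groups overlapped (log2 fold change 0.99, edgeR adjusted p = 0.0766). *Pck2*, the mitochondrial phosphoenolpyruvate carboxykinase, was at 156 ± 18.1 and 140 ± 7.05 CPM (log2 fold change -0.16, edgeR adjusted p = 0.380).

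Among regulators and targets of HIF1 outside glycolysis 0 of 21 tested genes rose and 0 fell by edgeR, against 2.65% and 1.93% of all genes, with 2 higher (9.52%, against 10.3% of all) and 3 lower (14.3%, against 9.86%) at an unadjusted p under 0.05. DESeq2 called 1, *Bnip3l*, as lower, and the likelihood ratio test and limma-voom called 0. *Hif1a*, the oxygen-regulated subunit, was at 47.4 ± 4.57 CPM in controls against 57.0 ± 1.96 CPM in the DKO, and all DKO mice lay above all controls (log2 fold change 0.26, edgeR adjusted p = 0.140). *Bnip3l*, a mitophagy receptor, was at 325 ± 41.2 and 253 ± 19.1 CPM (log2 fold change -0.36, edgeR adjusted p = 0.0839).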
